A study of Bos taurus with 6 samples.

Results

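Fibronectin, the thrombospondins and the matricellular proteins are secreted proteins of the extracellular matrix, and 8 of their genes, FN1, THBS1, THBS2, THBS3, TNC, SPARC, POSTN and VCAN, are described here out of 17663 genes in the table the authors deposited. The 8 genes were picked by symbol. They were chosen with their measured values in FT and WT cells already known, so their differences between the groups are given as descriptions, and calls among them are counted only beside the share of all genes. RNA was sequenced from bovine fetal fibroblasts (bEFs), cells grown in primary culture from cattle fetuses of 50 to 60 days without their bones, internal organs, limbs and head. FT cells (FT_1, FT_2 and FT_3) came from 3 fetuses that carried the fat-1 transgene, a gene of Caenorhabditis elegans for an enzyme that makes n-3 from n-6 polyunsaturated fatty acids. WT cells (WT_1, WT_2 and WT_3) came from 3 wild-type Luxi fetuses. Each fetus gave 1 poly(A) library, so n = 3 per group. The promoter of the transgene is not given in the sources used here, and the transgene itself was not analysed here.

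Fibronectin is a large glycoprotein that cells assemble into fibrils through integrins, and it carries binding sites for collagens, heparan sulfate and other matrix proteins. Matricellular proteins sit in the same matrix but act mainly as signals: thrombospondins, tenascin-C, SPARC and periostin bind matrix fibers, growth factors and cell surface receptors and change how firmly a cell holds on. Versican is a large chondroitin sulfate proteoglycan that binds hyaluronan and makes the matrix soft and hydrated, and fibroblasts are a main source of all of these proteins during development and wound repair.

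The libraries held 48167642 to 69777641 counts, and the lowest count of any of the 8 genes in any library was 2051 (THBS3 in WT_2), so counting error was small beside the spread between fetuses. FT_1 stood apart from the other 5 libraries. Over the 13482 genes with enough counts for a test, Pearson's r of log2 counts scaled by TMM, across genes, was 0.9863 between FT_2 and FT_3 and at least 0.9842 between WT libraries, but 0.8949 between FT_1 and FT_2 and 0.8942 between FT_1 and FT_3. FT_2 and FT_3 were closer to every WT library (0.913 to 0.9199) than to FT_1. These values are across genes, which are not independent replicates. Values are therefore given by library, and fold changes of the 8 genes and counts and medians of the partner lists with and without FT_1.

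The summed levels of fibroblast and of epithelial markers also set FT_1 apart. All 10 fibroblast markers looked up were in the table, and their summed FPKM (fragments scaled by gene length and by library total) was 6910.2, 17164 and 16897 in FT_1, FT_2 and FT_3, against 17313 to 17849 in WT cells. The most abundant of them, the intermediate filament gene VIM, had 1243.94, 3850.19 and 4170.95 FPKM in FT_1, FT_2 and FT_3, and 7890.61, 8177.52 and 7311.82 in WT_1, WT_2 and WT_3. The fibroblast markers did not move as 1 group: PDGFRA (217.73, 166.38 and 140.57 FPKM in FT cells, 86.99 to 99.7 in WT cells) and COL5A1 were above all WT libraries in each FT library, and LUM, DCN, PDGFRB and COL1A1 were above them in FT_2 and FT_3 and below them in FT_1. COL1A2 and COL3A1 were, like VIM, below all WT libraries in each FT library. THY1 was above them in FT_1 and among them in FT_2 and FT_3. All 8 epithelial markers were in the table, with a summed FPKM of 442 in FT_1, 16.2 in FT_2, 15.8 in FT_3 and 10.3, 7.92 and 14.2 in WT_1, WT_2 and WT_3. FT_1 therefore had the lowest fibroblast sum and the highest epithelial sum of the 6 libraries. The keratin KRT5, the most abundant epithelial marker, had 171.54, 2.57 and 1.63 FPKM in FT_1, FT_2 and FT_3, while KRT5, KRT8, KRT14 and KRT18 had a count of 0 in every WT library. EPCAM, a defining epithelial marker, had 58 counts (0.57 FPKM) in FT_1 and 0 in the other libraries. CLDN4 was alike in the FT libraries, with 3.65, 3.39 and 3.82 FPKM in FT_1, FT_2 and FT_3 and 0.09 to 0.33 in WT cells. CDH1, which made up most of the sum in WT cells, was high in FT_1 alone, with 36.32, 7.11 and 8.41 FPKM in FT_1, FT_2 and FT_3 and 10.03, 7.83 and 13.86 in WT_1, WT_2 and WT_3.

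Of 7 mesothelial markers, 5 were in the table, with a summed FPKM of 207 in FT_1, 45.1 in FT_2, 46.3 in FT_3 and 2.37 to 3.51 in WT cells. MSLN made up nearly all of it, and the defining marker WT1 had a count of 0 in each FT library and 4 to 7 in WT cells. The other markers were high in FT_1 alone. BNC1 had 494, 0 and 0 counts in FT_1, FT_2 and FT_3 and 8 to 12 in WT cells. KRT19 had 640, 6 and 0 counts in FT cells and at most 4 in WT cells. UPK3B had 1.03, 0.1 and 0.09 FPKM in FT cells and 0.2 to 0.25 in WT cells. The 8 smooth muscle markers were all in the table, with a summed FPKM of 2564, 3874 and 3733 in FT_1, FT_2 and FT_3 and of 1123, 1103 and 1233 in WT_1, WT_2 and WT_3, led by ACTA2. This sum was higher in each FT library than in each WT library, as were 7 of the 8 genes (21.8% of all tested genes), while MYH11 had 0.07 FPKM in FT_1, below the 0.12 to 0.18 of WT cells. The part of these markers in the results on matrix genes was not tested. In bulk RNA, fewer cells of a type and less RNA per cell cannot be told apart.

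**Figure D1:**
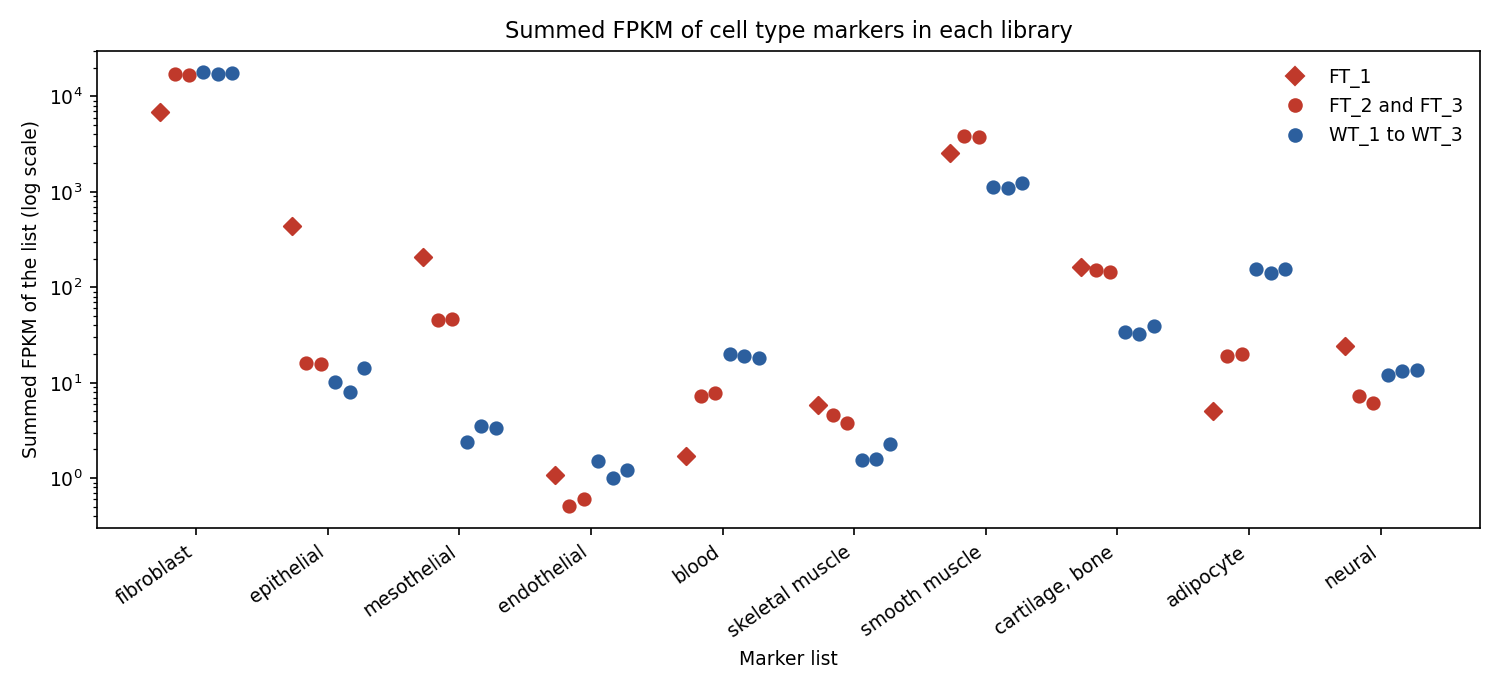
Summed FPKM (log scale) of 10 lists of cell type markers in each of the 6 libraries, with diamonds for FT_1, red circles for FT_2 and FT_3 and blue circles for WT cells. FT_1 has the lowest fibroblast sum (6910.2) and the highest epithelial (442) and mesothelial (207) sums.

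FN1, the fibronectin gene, showed the largest difference of the 8 genes between FT and WT cells, and the largest gap in FPKM among the FT libraries. FN1 (ENSBTAG00000008300, chromosome 2, 103361566 to 103431472 on the minus strand in the authors' table, whose genome build is not given in the sources used here) had 7499.22, 1779.76 and 1830.53 FPKM in FT_1, FT_2 and FT_3. In WT_1, WT_2 and WT_3 it had 284.28, 239.1 and 304.22 FPKM. All FT libraries lay above all WT libraries, and FT_1 lay far above FT_2 and FT_3, which differed from each other by 2.81% of their mean. FT_1 was at 27.2 times the WT mean and at 4.15 times the mean of FT_2 and FT_3, which were themselves at 6.54 times the WT mean. The fitted log2 fold change (log2FC) of FN1 was 3.89 (standard error, SE, 0.67) with all libraries and 2.88 (SE 0.10) without FT_1. By FPKM, the ranks of FN1 among 17663 genes were 1, 20 and 18 in FT_1, FT_2 and FT_3, and 233, 279 and 218 in WT_1, WT_2 and WT_3.

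THBS1 encodes thrombospondin-1, a trimeric glycoprotein that binds CD36 and CD47 on cells and can activate latent TGF-beta. It was the steadiest of the strongly raised genes. THBS1 (ENSBTAG00000002006, chromosome 10, 35209595 to 35224867 on the plus strand) had 6517.14, 6785.89 and 7022.19 FPKM in FT_1, FT_2 and FT_3 and 1815.05, 1725.96 and 2249.27 in WT_1, WT_2 and WT_3. The groups were far apart and FT_1 was like the other FT libraries, at 0.944 times their mean. The log2 fold change was 1.97 (SE 0.19), and 2.01 (SE 0.10) without FT_1. In FT_2 and FT_3 no gene of the table had a higher FPKM than THBS1, and in FT_1 only FN1 did.

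THBS2 encodes thrombospondin-2, a trimer of the same subgroup that is known for limiting the growth of blood vessels and for its effect on collagen fibrils. THBS2 (ENSBTAG00000018810, chromosome 9, 103154193 to 103185492 on the minus strand) had 337.34, 874.7 and 925.96 FPKM in FT_1, FT_2 and FT_3 and 249.08, 220.06 and 279.66 in WT_1, WT_2 and WT_3. The groups did not overlap, but FT_1 was only 1.35 times the WT mean, whereas FT_2 and FT_3 were 3.61 times it. The log2 fold change was 1.68 (SE 0.40), and 2.02 (SE 0.09) without FT_1. The FPKM of THBS1 was 7.29 to 8.04 times that of THBS2 in the WT libraries and 7.76 and 7.58 times in FT_2 and FT_3, so both genes stood in nearly the same proportion in these 5 libraries. In FT_1 the ratio was 19.3.

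THBS3 encodes a pentameric thrombospondin and was the least abundant of the 8 genes in all 6 libraries. THBS3 (ENSBTAG00000000057, chromosome 3, 15414611 to 15425793 on the plus strand) had 10.05, 16.56 and 15.25 FPKM in FT_1, FT_2 and FT_3 and 9.7, 9.29 and 11.67 in WT_1, WT_2 and WT_3. FT_2 and FT_3 lay above all WT libraries, and FT_1 lay among them. The log2 fold change was 0.61 (SE 0.21), and 0.81 (SE 0.10) without FT_1. The other pentameric thrombospondin genes were at or near 0, with at most 90 counts for THBS4 (in FT_1) and at most 4 for COMP, and were not tested.

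TNC encodes tenascin-C, a hexameric glycoprotein that is made in the embryo and in healing tissue and weakens the hold of cells on fibronectin. TNC (ENSBTAG00000000575, chromosome 8, 104208978 to 104311676 on the minus strand) had 1184.81, 3927.14 and 4115.16 FPKM in FT_1, FT_2 and FT_3 and 1710.38, 1585.03 and 1757.69 in WT_1, WT_2 and WT_3. The FT libraries thus lay on both sides of the WT libraries, with FT_1 below all of them at 0.703 times the WT mean and FT_2 and FT_3 above all of them at 2.39 times. The log2 fold change of 1.04 (SE 0.48) averages over this split, and without FT_1 it was 1.43 (SE 0.07). The FPKM of TNC was 5.78 to 6.63 times that of FN1 in WT cells, 2.21 and 2.25 times in FT_2 and FT_3, and 0.158 times in FT_1.

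VCAN, the versican gene, had the same pattern as TNC at a much lower level. VCAN (ENSBTAG00000014906, chromosome 7, 83356440 to 83476139 on the plus strand) had 20.73, 79.11 and 82.58 FPKM in FT_1, FT_2 and FT_3 and 34.69, 30.01 and 34.48 in WT_1, WT_2 and WT_3. FT_1 was again below all WT libraries, at 0.627 times the WT mean, and FT_2 and FT_3 were above all of them, at 2.45 times. The log2 fold change was 1.05 (SE 0.51), and 1.46 (SE 0.08) without FT_1.

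POSTN encodes periostin, a protein of collagen-rich tissue that binds integrins and takes part in the cross-linking of collagen. POSTN (ENSBTAG00000012409, chromosome 12, 24218976 to 24254116 on the plus strand) had 212.3, 34.02 and 38.52 FPKM in FT_1, FT_2 and FT_3 and 39.59, 35.03 and 37.49 in WT_1, WT_2 and WT_3. Only FT_1 was high, at 5.68 times the WT mean, while FT_2 and FT_3 were at 0.971 times it, with FT_2 just below and FT_3 within the WT values. Its log2 fold change of 1.49 (SE 0.73) was 0.13 (SE 0.08) without FT_1, so the difference between the groups rested on that library.

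SPARC encodes a collagen-binding glycoprotein also called osteonectin, and it varied least of the 8 genes. SPARC (ENSBTAG00000014835, chromosome 7, 62874446 to 62897221 on the minus strand) had 1782.54, 1831.05 and 1901.04 FPKM in FT_1, FT_2 and FT_3 and 1732.24, 1627.54 and 1766.65 in WT_1, WT_2 and WT_3. The groups did not overlap, but the lowest FT value was close to the highest WT value, and the means differed by a factor of 1.08. The log2 fold change was 0.26 (SE 0.12), 0.30 (SE 0.06) without FT_1, and 0.11 when libraries were scaled by their totals alone. That scaling moved the median log2FC over the tested genes from 0.03 to -0.12. The log2 fold changes of all 8 genes were above 0 under each scaling.

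**Figure D2:**
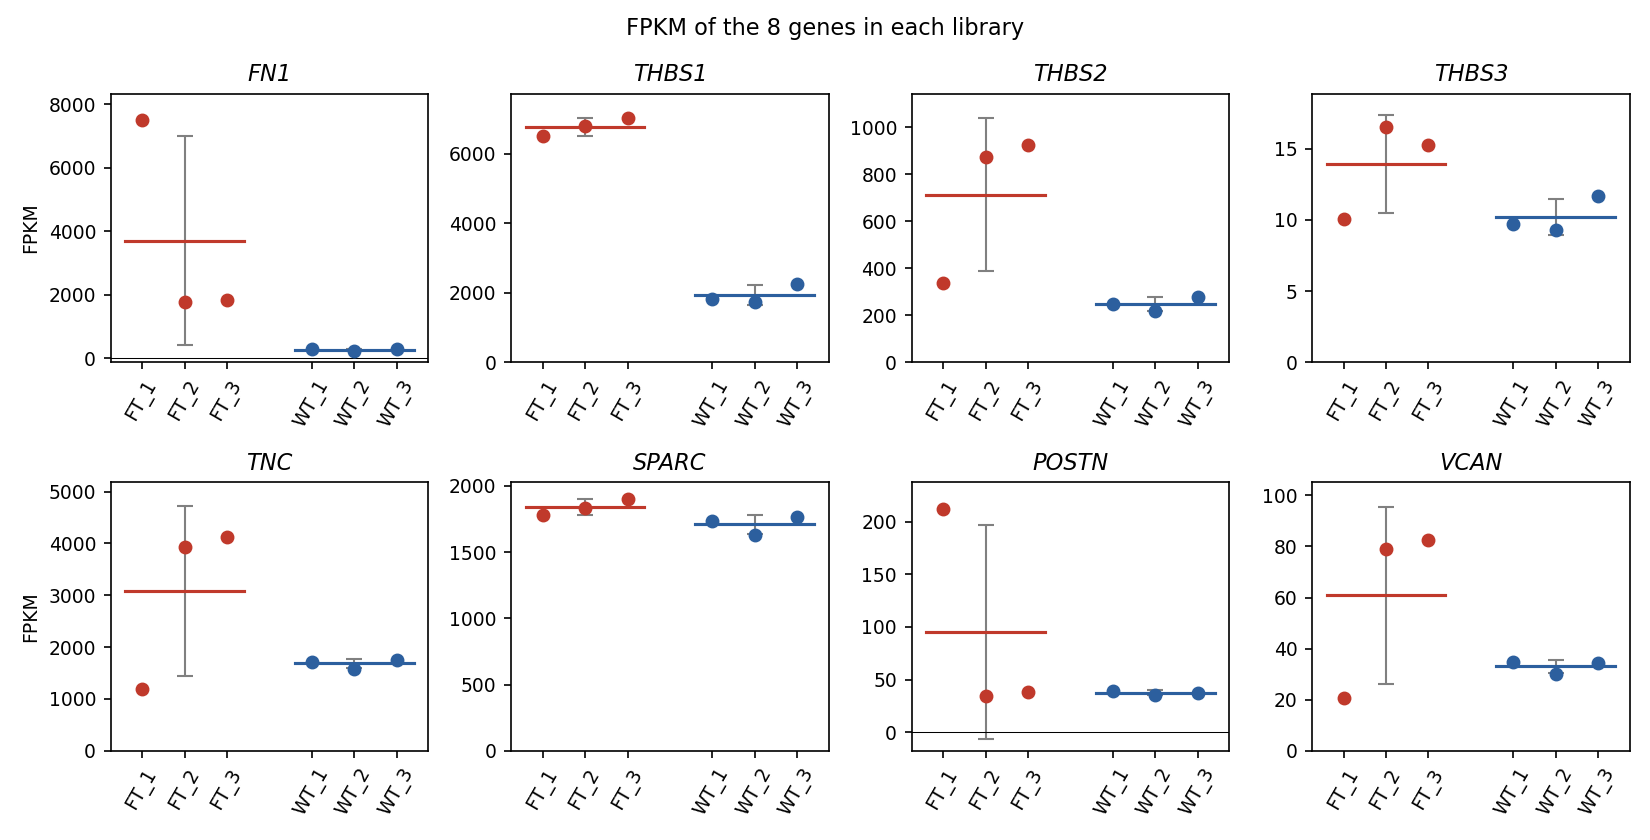
FPKM of the 8 genes in each library (red, FT; blue, WT), with the group mean as a line and the SD (n = 3) as a bar, on a linear axis with its own range for each gene. FT_1 is the highest library for FN1 (7499.22) and POSTN (212.3) and the lowest for TNC (1184.81) and VCAN (20.73).

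By the position of FT_1, the 8 genes fell into 3 patterns. FT_1 was more than 2 times the mean of FT_2 and FT_3 for 2 genes, FN1 and POSTN, and 11.5% of the 13482 tested genes had such a ratio. It was less than 0.5 times that mean for 3 genes, THBS2, TNC and VCAN, as for 11.2% of the tested genes. For the other 3, THBS1, THBS3 and SPARC, FT_1 was within these bounds. FT_2 and FT_3 differed by 2.81% (FN1) to 12.4% (POSTN) of their mean, and the coefficient of variation of the WT libraries was between 4.24% (SPARC) and 14.5% (THBS1). Over the 8118 tested genes whose FPKM averaged 5 or more, the median coefficient of variation was 12.7% in FT cells, 6.44% in WT cells and 4.04% between FT_2 and FT_3. In FT cells FN1 reached 88.8% and POSTN 107%, against 3.73% for THBS1 and 3.24% for SPARC.

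**Figure D3:**
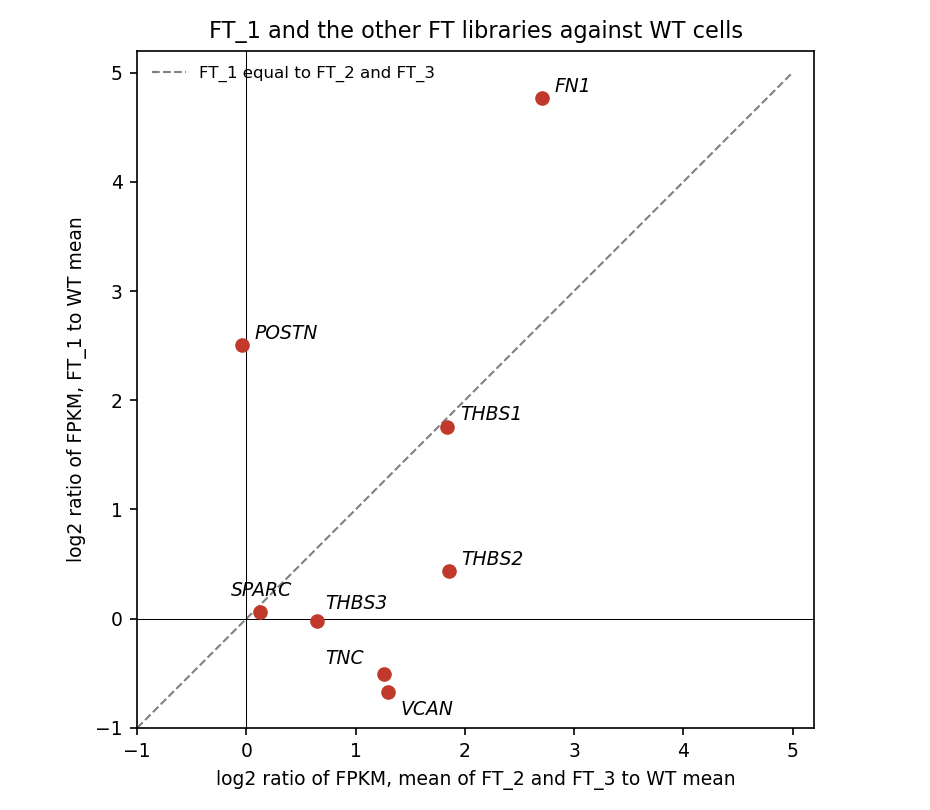
Log2 ratio of FPKM to the WT mean in FT_1 (vertical axis) against that of the mean of FT_2 and FT_3 (horizontal axis), with 1 point per gene and a dashed line where both are equal. FN1 and POSTN lie well above the line, THBS2, THBS3, TNC and VCAN below it, and THBS1 and SPARC near it.

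A gene was called higher or lower at a Benjamini-Hochberg adjusted p under 0.05 in edgeR's quasi-likelihood test with a log2FC beyond 1 or -1. The 8 genes were chosen with this contrast known, which bears on their calls, so nothing is read from them. FN1, THBS1 and THBS2, 3 of the 8 genes, were called higher in FT cells, where 8.39% of the 13482 tested genes were called higher and 7.56% lower. Without FT_1, 5 of the 8 were called higher (TNC and VCAN in addition), where 10.8% of 13765 genes were called higher and 11.7% lower. THBS2 lost its call when FT_2, FT_3, WT_1, WT_2 or WT_3 was left out in turn. Over the whole table, 1131 genes were called higher and 1019 lower, and the number higher was 748 without WT_1 and 728 without WT_2, and the number lower 1614 without FT_1. All FT values lay above all WT values for 4 of the 8 genes (FN1, THBS1, THBS2 and SPARC) and for 21.8% of the tested genes. Of the called genes of the whole table, 52.6% were higher in FT cells, and 39.3% when libraries were scaled by their totals alone. With limma this was 29.9% on log2(FPKM + 1) (423 higher and 993 lower) and 33.6% on log2(FPKM + 0.1) (671 higher and 1326 lower).

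In WT cells the levels of the 8 genes spanned a wide range. THBS1 (1930.1 ± 280.0 FPKM, SD, n = 3), SPARC (1709 ± 72.5) and TNC (1684 ± 89.2) were the highest. Their means did not differ beyond the spread between libraries, but THBS1 was above SPARC and TNC within each WT library. FN1 (276 ± 33.4) and THBS2 (249.6 ± 29.8) came next. Their means also differed by less than the spread between libraries, but FN1 was above THBS2 within each WT library. They were followed by POSTN (37.4 ± 2.28), VCAN (33.1 ± 2.64, with no value as high as the lowest of POSTN) and, lowest, THBS3 (10.2 ± 1.27). In FT_2 and FT_3 the order was THBS1, TNC, SPARC, FN1, THBS2, VCAN, POSTN and THBS3, with SPARC and FN1 close together. In FT_1 it was FN1, THBS1, SPARC, TNC, THBS2, POSTN, VCAN and THBS3. The FPKM of THBS1 was 1.05 to 1.27 times that of SPARC in WT cells and 3.66 to 3.71 times in FT cells, FT_1 included.

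Together the 8 genes took 12.3%, 9.67% and 10.1% of all counts in FT_1, FT_2 and FT_3, against 3.29%, 3.05% and 3.6% in WT_1, WT_2 and WT_3. FT cells had a mean share of 10.7 ± 1.41% and WT cells one of 3.31 ± 0.279% (SD, n = 3), a difference of 7.36 percentage points. Every FT library was therefore well above every WT library. FN1, THBS1 and TNC made up most of the share, with 11.6%, 8.62% and 8.97% of the counts in FT_1, FT_2 and FT_3 and 2.67%, 2.48% and 2.96% in WT cells. These shares are of counts, which weigh long transcripts more. As a share of summed FPKM, a scale per length, the 8 genes took 4.31%, 3.87% and 4.08% in FT cells and 1.29%, 1.17% and 1.42% in WT cells.

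FT_1 differed from the other FT libraries in the make-up of the share. The part of FN1 was 7.01%, 1.66% and 1.71% in FT_1, FT_2 and FT_3 and at most 0.282% in WT cells. TNC took 0.989% in FT_1, below its 1.32% to 1.46% in WT cells, and 3.27% and 3.43% in FT_2 and FT_3. THBS1 took a like share in all FT libraries, 3.55%, 3.69% and 3.82%, against 0.983%, 0.936% and 1.22% in WT cells. Leaving FN1 out, the other 7 genes took 5.28%, 8.01% and 8.35% in FT_1, FT_2 and FT_3, and 3.02%, 2.83% and 3.32% in WT cells, so the FT libraries stayed above the WT libraries and FT_1 became the lowest of the FT libraries. The 10 genes with the highest counts took 15.2% to 15.4% of the counts in FT cells and 9.86% to 10.5% in WT cells.

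**Figure D4:**
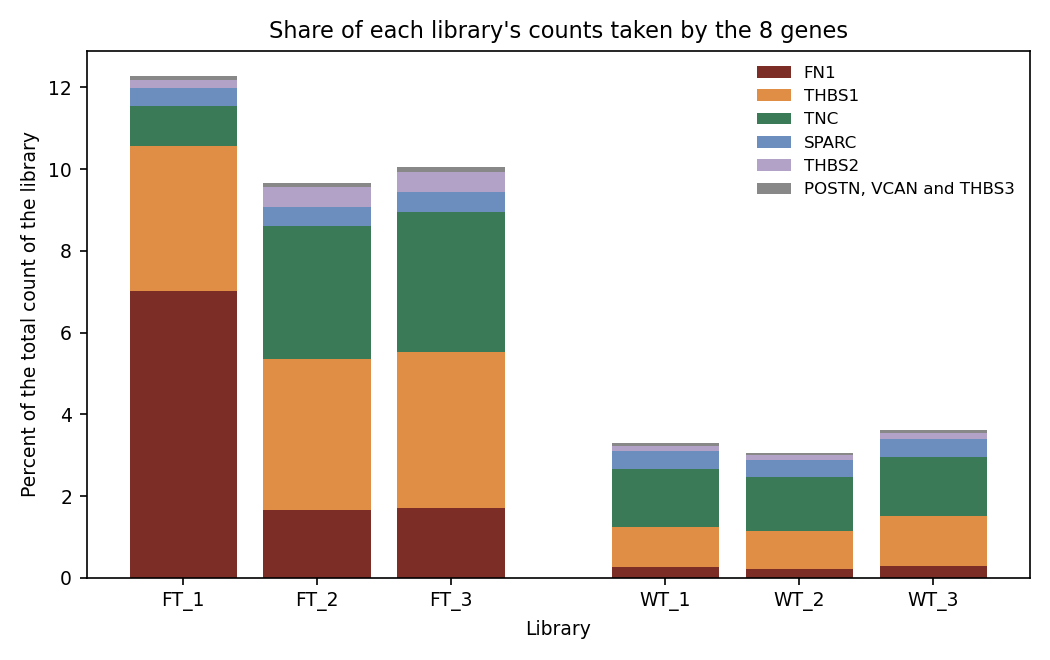
Percent of the total count of each library taken by the 8 genes, stacked by gene, with the 3 least abundant genes joined. The sum is 9.67% to 12.3% in FT cells and 3.05% to 3.6% in WT cells, and FN1 makes up 7.01% of all counts in FT_1.

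The 8 genes lie on 7 chromosomes. They were picked as genes of matrix proteins, so shared matrix annotations follow from that choice. In the authors' table, FN1, THBS1, THBS2, THBS3 and TNC carried the KEGG pathways ECM-receptor interaction, focal adhesion and PI3K-Akt signaling. SPARC, POSTN and VCAN carried none of these. The GO term cell adhesion was given to 7 genes (not SPARC), collagen-containing extracellular matrix to 7 (not VCAN) and calcium ion binding to 5 (SPARC, VCAN and the thrombospondins). The annotations did not follow the position of FT_1: of the 5 ECM-receptor interaction genes, FN1 was highest in FT_1, TNC was lowest there, and THBS1 was alike in all FT libraries.

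The genes most like FN1, THBS1 and SPARC were sought among 7733 other genes that had a symbol and averaged 5 FPKM or more, by Pearson's r of log2(FPKM + 1) over the 6 libraries. The libraries form 3 clusters (FT_1, the other FT libraries and WT), so a high r is easily reached, and 488 genes had an r of at least 0.95 with FN1, 570 with THBS1 and 18 with SPARC. Most like FN1 were TMED10 (r = 0.9987), LAMA5 (0.9986), FBXL12 (0.9985), FASN (0.9981) and KCNMB1 (0.998). LAMA5, a laminin chain gene of basement membranes, had 21.0, 4.92 and 4.94 FPKM in FT_1, FT_2 and FT_3 and 0.26 to 0.52 in WT cells, so it shared both steps of FN1. Most like THBS1 were LIMS2 (0.9993), INPPL1 (0.9993), COL16A1 (0.9987), SRRM2 (0.9987) and ADAMTS10 (0.9984), and most like SPARC were KLF9 (0.9881), CDIP1 (0.9851), NOTCH2 (0.9833), PEAK1 (0.9806) and ALDH3A2 (0.9794). COL16A1, a collagen gene, had 36.98, 38.28 and 37.61 FPKM in FT_1, FT_2 and FT_3 and 16.94 to 20.65 in WT cells, as level within FT cells as THBS1.

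Other genes of the same families were looked up. Like the other lists of partner genes, this list was written with earlier results of these data known, so its counts are a description and no independent check of the 8 genes. Of 20 further genes of the thrombospondin, tenascin, SPARC, CCN and periostin families and osteopontin, 18 were in the table and 14 were tested, of which 7 were called higher in FT cells and none lower, beside 8.39% higher and 7.56% lower among all tested genes. Their median log2FC was 1.36, beside 1.27 for the 8 genes and 0.03 over all tested genes. For the lower direction, edgeR at an unadjusted p under 0.05, DESeq2 and limma also gave 0 genes. The median was 1.19 without FT_1 (-0.02 over all tested genes). The number called higher was 8 without FT_1 (10.8% of all tested genes), 3 without WT_1, 3 without WT_2 and 4 without WT_3. Over the whole table, 748 of 13804, 728 of 13847 and 855 of 13849 genes were called higher without WT_1, WT_2 and WT_3. The numbers lower were 753, 713 and 808, and these counts also apply to the lists below. Both limma on FPKM and scaling by library totals gave 4 (423 or 671 of 12247, and 879 of 13482, over the whole table). Without FT_1, SPP1, the osteopontin gene, was called lower (named after its values were seen), beside 11.7% of all tested genes.

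SMOC2 and SMOC1, which encode calcium-binding relatives of SPARC, had the largest differences of these relatives, but in opposite FT libraries. SMOC2 had 4.1, 24.19 and 22.54 FPKM in FT_1, FT_2 and FT_3 and 0.83 to 1.11 in WT cells (log2FC 4.29, 4.76 without FT_1, SE 0.71, edgeR adjusted p = 0.00592). Here and for all partner genes below, the SE and the adjusted p belong to the fit with all libraries. SMOC1 had 307.24, 55.79 and 61.35 FPKM in FT cells and 17.23 to 19.51 in WT cells (log2FC 3.11, 1.87 without FT_1, SE 0.73, edgeR adjusted p = 0.0188). FT_1 was thus the lowest FT library for SMOC2, as for TNC, and the highest for SMOC1, as for FN1. TGFBI, a relative of POSTN, had 109.25, 15.54 and 16.72 FPKM in FT cells and 6.8 to 9.69 in WT cells (log2FC 2.71, 1.19 without FT_1, SE 0.83, edgeR adjusted p = 0.0451). Like POSTN it was far higher in FT_1, but unlike POSTN it was above all WT libraries in FT_2 and FT_3 too. SMOC1 and TGFBI were not called without WT_1, without WT_2 or without WT_3, and TGFBI was not called with library totals or limma, while SMOC2 was called in each of these cases.

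CCN proteins are small matricellular signals that bind integrins. CCN1 had 384.61, 481.44 and 435.9 FPKM in FT cells and 101.79, 228.93 and 248.09 in WT cells (log2FC 1.33, 1.42 without FT_1, SE 0.34, edgeR adjusted p = 0.0263), so its WT libraries were spread more than its FT libraries. CCN2, the connective tissue growth factor gene, had 2029.52 FPKM in FT_1 but 544.61 and 528.84 in FT_2 and FT_3, below the 702.89 to 747.59 of WT cells. It was not called (log2FC 0.67, -0.25 without FT_1, SE 0.54, edgeR adjusted p = 0.364). CCN3, named after its values were seen, had 419.25, 487.87 and 461.7 FPKM in FT cells and 77.51 to 96.05 in WT cells (log2FC 2.60, 2.67 without FT_1, SE 0.14, edgeR adjusted p = 0.000523). CCN3 too was above all WT libraries by a wide margin in each FT library. CCN3 was called with any 1 library left out, and CCN1 was not called without FT_2, without FT_3 or without WT_2. CCN4 and CCN5 (named after their values were seen) were called too, but not with library totals or limma. CCN4 had 3.31, 11.98 and 12.21 FPKM in FT cells and 3.34 to 3.59 in WT cells, and kept its call only when the library left out was FT_1. CCN5 (log2FC 1.02, 0.83 without FT_1) was not called without FT_1 or without WT_1.

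Of the receptors that hold fibronectin, thrombospondins and tenascin-C, 20 were looked up, all were in the table and 19 were tested. There were 4 called higher and 2 lower (8.39% and 7.56% of all tested genes), and the median log2FC was 0.05 (0.03 over all tested genes). Without FT_1 the numbers were 3 and 3 (10.8% and 11.7% of all tested genes) and the median -0.26, and the number called higher was 2 without WT_1 and 1 without WT_2. ITGB1, the beta chain that the main fibronectin receptors share, had 511.86, 575.82 and 589.66 FPKM in FT cells and 427.1, 417.51 and 391.83 in WT cells. ITGB1 had a log2FC of 0.60 (0.67 without FT_1, SE 0.11, edgeR adjusted p = 0.00953), under the fold threshold. ITGA5, the alpha chain of the classical fibronectin receptor, had 90.95, 68.1 and 70.79 FPKM in FT cells and 95.66 to 100.8 in WT cells (log2FC -0.21, -0.34 without FT_1, SE 0.12, edgeR adjusted p = 0.213). The classical fibronectin receptor genes were thus measured within a narrow range beside the range of FN1.

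Other integrin alpha chain genes differed more. ITGA8, whose product pairs with ITGB1 to bind fibronectin and tenascin-C, had 24.81, 113.33 and 113.76 FPKM in FT cells and 6.0 to 8.63 in WT cells (log2FC 3.67, 4.11 without FT_1, SE 0.62, edgeR adjusted p = 0.00641). ITGA3 had 202.12, 41.24 and 43.01 FPKM in FT cells and 19.45 to 23.0 in WT cells (log2FC 2.30, 1.15 without FT_1, SE 0.67, edgeR adjusted p = 0.0377). FT_1 was the lowest FT library for ITGA8 and the highest for ITGA3. SDC1, a syndecan that binds matrix through its heparan sulfate chains, had a log2 fold change of 1.38 (SE 0.30, edgeR adjusted p = 0.0142), and 0.96 without FT_1, under the fold threshold. ITGA4, another fibronectin-binding chain, was lower, with 4, 10 and 22 counts in FT_1, FT_2 and FT_3 and 547, 261 and 369 in WT_1, WT_2 and WT_3 (edgeR adjusted p = 0.00373). ITGA3 and SDC1 were not called when WT_1, WT_2 or WT_3 was left out, nor ITGA3 with limma, and ITGA8 and ITGA4 were.

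CD36 and CD47 encode receptors of thrombospondin-1. CD36 was lower in FT cells, with 0, 8 and 12 counts in FT_1, FT_2 and FT_3 and 1239, 644 and 460 in WT_1, WT_2 and WT_3 (edgeR adjusted p = 0.00456), and it was low in all libraries, at most 4.11 FPKM. CD47 had 91.41, 84.12 and 84.9 FPKM in FT cells and 140.7, 116.95 and 129.33 in WT cells (log2FC -0.41, -0.44 without FT_1, SE 0.10, edgeR adjusted p = 0.0187), under the fold threshold. Both were below all WT libraries in all FT libraries, where THBS1 was above all of them. LRP1, a further receptor of thrombospondin-1 (named after its values were seen), was above all WT libraries, with 324.68, 215.85 and 237.05 FPKM in FT cells and 130.62 to 184.47 in WT cells (log2FC 0.87, 0.69 without FT_1, edgeR adjusted p = 0.0201), under the fold threshold. CALR, the most abundant gene of the receptor list (also named after its values were seen), went the other way. It had 404.9, 549.09 and 531.51 FPKM in FT cells and 831.3 to 951.47 in WT cells. Its log2FC was -0.68 (-0.55 without FT_1, edgeR adjusted p = 0.0175), also under the fold threshold. CD36 is also a gene of fat cells, and FABP4, the most abundant of 7 adipocyte markers, had 0.08, 4.67 and 5.95 FPKM in FT cells and 127.86 to 143.41 in WT cells. All 7 adipocyte markers were in the table, with summed FPKM of 5.01, 19.2 and 20.1 in FT_1, FT_2 and FT_3 and 154, 140.0 and 156 in WT_1, WT_2 and WT_3, and the defining marker ADIPOQ had a count of 0 in the FT libraries and in WT_2. FABP4 made up most of this sum in WT cells, and the list did not move as 1 group. CIDEC was lower in each FT library (0.08, 0 and 0 FPKM, against 2.27 to 3.2 in WT cells) and PPARG in FT_2 and FT_3, LEP was higher in FT_2 and FT_3 (0.03, 4.91 and 4.45 FPKM in FT cells, 0.02 to 0.09 in WT cells), PLIN1 was slightly above WT cells, and LPL was near WT cells in FT_2 and FT_3. Their part in the values of CD36 was not tested.

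Versican works with hyaluronan, link proteins and enzymes that build its chondroitin chains. Of 19 such genes 17 were in the table and 14 were tested, with 2 called higher and 4 lower (8.39% and 7.56% of all tested genes) and a median log2FC of -0.15 (0.03 over all tested genes). Without FT_1 there were 2 higher and 6 lower among 15 (10.8% and 11.7% of all tested genes), with a median of -0.59, and the median was 0.10 without FT_2 and 0.07 without FT_3, so its sign rested on the libraries used. The number called higher was 1 when WT_1, WT_2 or WT_3 was left out, and the number called lower was 2 without FT_2 and 1 when WT_1, WT_2 or WT_3 was left out. CHPF, a chondroitin polymerizing factor gene, had 26.55, 48.54 and 50.89 FPKM in FT cells and 11.86 to 13.88 in WT cells (log2FC 1.86, 2.11 without FT_1, SE 0.27, edgeR adjusted p = 0.00382). CHSY3, a chondroitin synthase gene, had 5.08, 1.88 and 2.12 FPKM in FT cells and 0.93 to 1.16 in WT cells (log2FC 1.71, 1.13 without FT_1, SE 0.41, edgeR adjusted p = 0.0214). Both lay above WT cells in each FT library, where VCAN itself was below them in FT_1. CHPF was called with any 1 library left out, and CHSY3 was not when that library was WT_1, WT_2 or WT_3, nor with limma on log2(FPKM + 1).

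ACAN, the gene of the versican relative aggrecan, was low everywhere, with 14, 53 and 80 counts in FT cells and 355, 283 and 237 in WT cells (log2FC -2.26, -1.78 without FT_1, SE 0.66, edgeR adjusted p = 0.0395). HMMR, a hyaluronan-binding protein that also acts at the mitotic spindle, had 8.67, 7.91 and 8.52 FPKM in FT cells and 31.96 to 41.87 in WT cells (log2FC -1.97, -1.98 without FT_1, SE 0.12, edgeR adjusted p = 0.000523). TNFAIP6, which modifies hyaluronan, had 0.72, 1.62 and 1.9 FPKM in FT cells and 4.86 to 5.33 in WT cells (log2FC -1.67, -1.34 without FT_1, SE 0.38, edgeR adjusted p = 0.0178). These genes were below all WT libraries in all FT libraries, but without WT_1, WT_2 or WT_3 in turn ACAN and TNFAIP6 were not called, nor was ACAN without FT_2. CD44, the main hyaluronan receptor, had 218.94, 121.7 and 126.2 FPKM in FT cells and 165.79 to 187.6 in WT cells, with FT_1 above and FT_2 and FT_3 below WT cells (log2FC -0.05, -0.36 without FT_1, SE 0.23, edgeR adjusted p = 0.89). HAS2, a hyaluronan synthase gene, had 5.56, 0.89 and 0.63 FPKM in FT cells and 1.08 to 1.4 in WT cells (edgeR adjusted p = 0.36), and the link protein gene HAPLN1 had 244 counts in FT_1 but 0 to 33 in the other libraries (edgeR adjusted p = 0.394). CD44, HAS2 and HAPLN1 (at most 1.34 FPKM) were thus highest in FT_1, as FN1 and POSTN were and VCAN was not. Unlike FN1, CD44 and HAS2 were below WT cells in FT_2 and FT_3. The link protein gene HAPLN3 (named after its values were seen) was called lower. It had 41.93, 21.72 and 18.24 FPKM in FT cells and 78.22 to 82.46 in WT cells (log2FC -1.39, -1.83 without FT_1, edgeR adjusted p = 0.0153). HAPLN3 was not called without FT_2 or without WT_1, WT_2 or WT_3 in turn.

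Proteases that cleave or process versican, fibronectin, periostin or thrombospondins were represented by 13 of 14 genes in the table. Of the 10 tested, 2 were called higher and none lower (8.39% and 7.56% of all tested genes), with a median log2FC of 0.42 (0.03 over all tested genes). Without FT_1 there were 3 higher and 1 lower (HTRA1, named after its values were seen), beside 10.8% and 11.7% of all tested genes. The median was then 0.60 (-0.02 over all tested genes). With limma on log2(FPKM + 1) and all libraries, 1 was higher. For the lower direction with all libraries, edgeR at an unadjusted p under 0.05, DESeq2 and limma gave 0 genes. ADAMTS9, a protease that cuts versican, had 1.97, 1.85 and 1.57 FPKM in FT cells and 0.13 to 0.25 in WT cells (log2FC 3.51, 3.46 without FT_1, SE 0.31, edgeR adjusted p = 0.00109). ADAMTS4, another versican protease, had 3.25, 3.59 and 3.37 FPKM in FT cells and 1.46 to 1.65 in WT cells (log2FC 1.3, 1.34 without FT_1, SE 0.12, edgeR adjusted p = 0.0012). Both were even within FT cells, where VCAN was not, and ADAMTS4 was not called with limma on log2(FPKM + 1).

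Focal adhesion proteins link integrins bound to fibronectin to the actin cytoskeleton. Of 20 such genes 19 were in the table and tested, with 2 called higher and none lower (8.39% and 7.56% of all tested genes) and a median log2FC of 0.36 (0.03 over all tested genes). ZYX, the zyxin gene, had 282.75, 173.8 and 178.77 FPKM in FT cells and 90.3 to 100.13 in WT cells (log2FC 1.31, 1.06 without FT_1, SE 0.20, edgeR adjusted p = 0.00446). ACTN1, an alpha-actinin gene, had 453.52, 231.89 and 244.92 FPKM in FT cells and 166.54 to 175.88 in WT cells (log2FC 1.01, SE 0.26, edgeR adjusted p = 0.0271), and its log2 fold change was 0.65 without FT_1. ACTN1 was also not called without WT_1, WT_2 or WT_3 in turn, with library totals or with limma. Both were highest in FT_1, as FN1 was. At an unadjusted p under 0.05 and no fold threshold, 9 of the 19 were higher and 4 lower in edgeR (25.7% and 23.9% of all tested genes), while DESeq2 and limma with the fold threshold gave 0 lower. Without FT_1 there were 2 higher and 1 lower (TLN2, named after its values were seen), beside 10.8% and 11.7% of all tested genes. The median was then 0.46 (-0.02 over all tested genes). The number higher was 1 without WT_1, without WT_2 and without WT_3 in turn, and with library totals. The summed FPKM of the focal adhesion genes was 1926, 1612 and 1629 in FT_1, FT_2 and FT_3, and 1329, 1336 and 1324 in WT_1, WT_2 and WT_3. Its members differed among FT libraries. ACTN1, ZYX and ACTN4 (305.97, 162.85 and 171.48 FPKM) were highest in FT_1. VCL (183.58, 230.14 and 237.74) and ILK (172.96, 247.96 and 225.19) were lowest there (ACTN4, VCL and ILK named after their values were seen). The summed FPKM of smooth muscle markers was also above WT cells in each FT library (2564, 3874 and 3733 in FT_1, FT_2 and FT_3). The part of these markers was not tested.

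**Figure D5:**
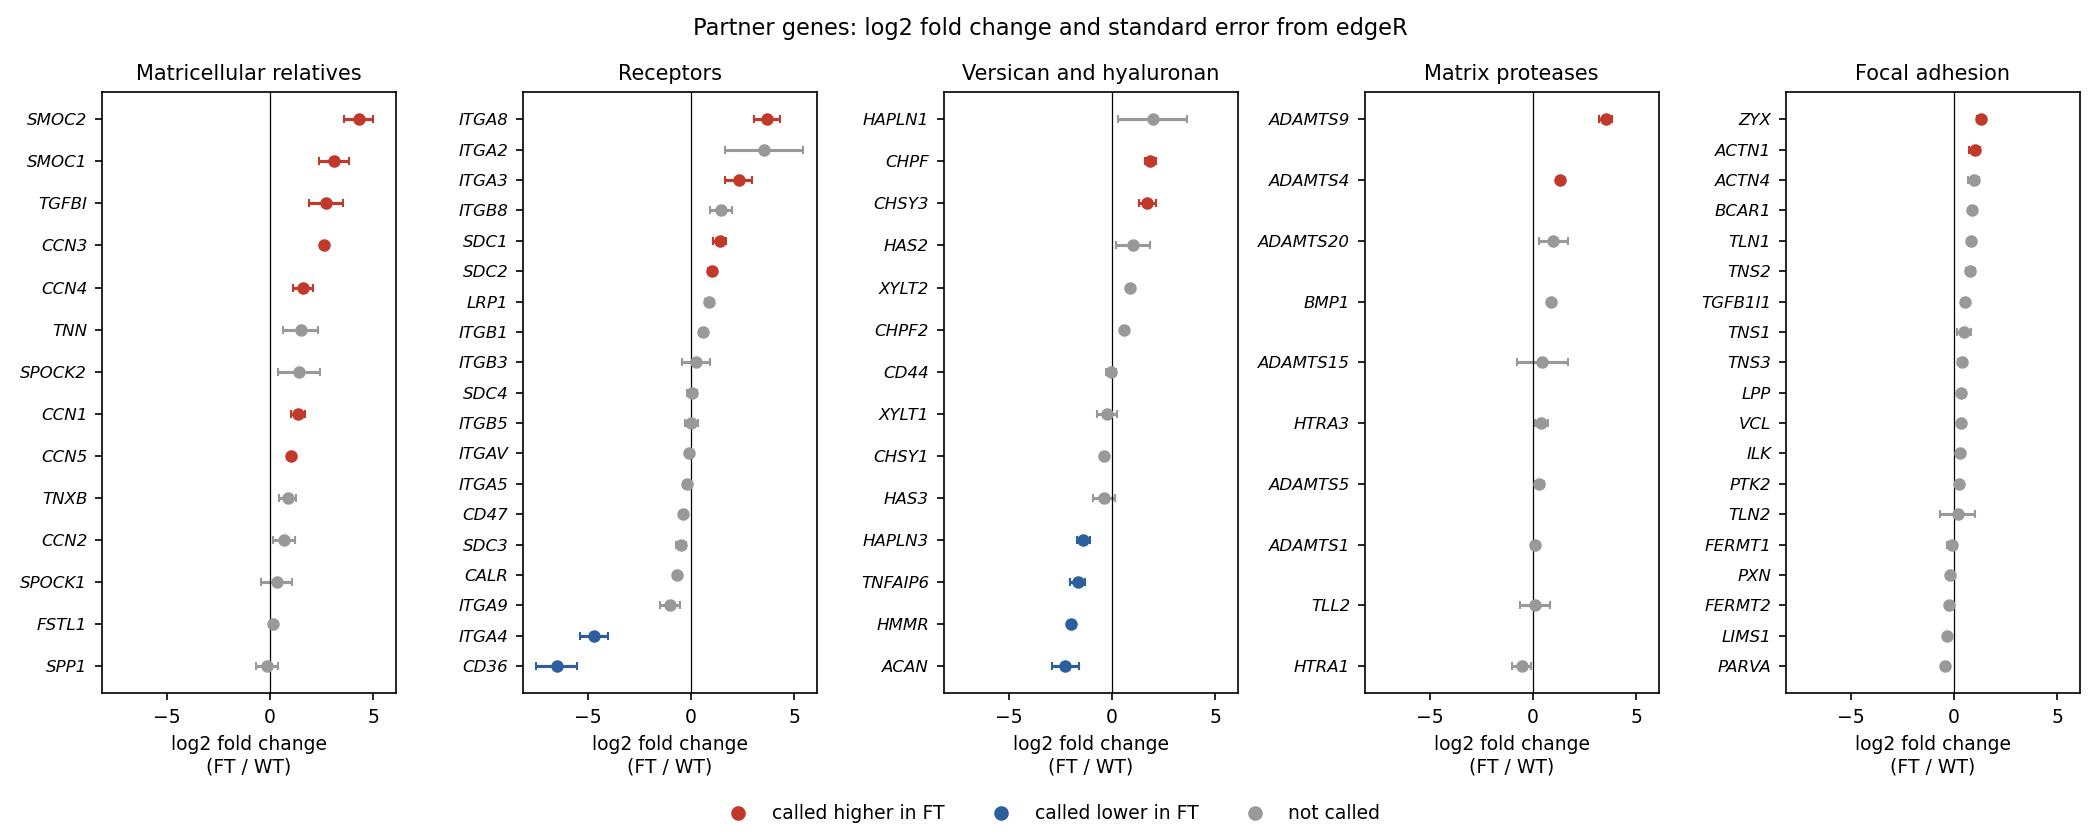
Log2 fold change of FT against WT cells with its standard error from edgeR for the tested genes of 5 partner lists (red, called higher; blue, called lower; grey, not called). Among the matricellular relatives 7 of 14 are called higher, and 4 when libraries are scaled by their totals alone, beside 8.39% of all tested genes.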

How the data were processed

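Poly(A) RNA of 6 cultures of bovine fetal fibroblasts (3 FT, 3 WT, 1 library per fetus) was sequenced from both ends. Per the study's methods the authors mapped the reads with HISAT to a UCSC genome and estimated expression with StringTie and edgeR, and the submitters' notes list Bowtie 0.12.2, HISAT2 2.0 and StringTie 1.3.0 without their roles, and a mouse build, mm8. The build behind the coordinates in the authors' table is therefore not given in the sources used here. The deposited table holds, for each of 17663 genes, a raw count and an FPKM value per library. How reads were shared between overlapping genes or close copies, and whether strand was used, is not stated. Library totals were 48167642 to 69777641 counts, and for the 8 genes counting error was small beside the spread between fetuses. Some partner and marker genes had few counts, such as CD36 with 0, 8 and 12 in FT cells. For those genes counting error also limits the precision.

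FT was compared with WT on the counts with edgeR 4.0.16 in R 4.3.3 (TMM scaling, filterByExpr, quasi-likelihood F test, 13482 genes tested). A gene was called at a Benjamini-Hochberg adjusted p under 0.05 with a fold change beyond 1 or -1 on the log2 scale. The standard error is the log2 fold change over the square root of F. For partner genes, the standard error and adjusted p are those of the model with all libraries. Values in single libraries are the authors' FPKM, and shares are of counts. A model with all libraries and one without FT_1 are given side by side. The alternatives were DESeq2 1.42.0, limma 3.58.1 on log2(FPKM + 1) and log2(FPKM + 0.1) where FPKM averaged 0.5 or more, median-ratio scaling, library totals, TMM without the 10 highest genes, no filter, a replicate block, unadjusted p, no fold threshold, and leaving out each library. The procedure was tested on simulated data in which no library stood apart as FT_1 does.

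The 8 genes were selected on measured values of these data, and they and the lists of partner and marker genes were written with earlier results of these data known. Named genes were all 8 genes; in each partner list, up to 3 called genes with the largest log2 fold change in each direction; ITGA5, ITGB1, CD47, CD36, CD44, HAS2, HAPLN1, THBS4, COMP, CCN1, CCN2 and TGFBI in any case; the 5 genes most like FN1, THBS1 and SPARC; and the most abundant gene of each marker list. Genes named outside this rule are marked as such or serve to describe a marker list.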

Additional observations from a re-analysis of the deposited data

How the results depend on the processing

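Of 292 recomputed values for 21 results, 246 stayed within the spread between replicates or within 1.5 times the count and 46 moved further. Counts of called genes cannot change sign. The log2 fold changes of the 8 genes and the difference in their share stayed above 0. Other values did change sign: the median log2FC of the versican list went from -0.15 to 0.1 without FT_2 and 0.07 without FT_3. That of CCN2 went from 0.67 to -0.25 without FT_1. The 1131 genes called higher became 423 with limma on log2(FPKM + 1), 671 with log2(FPKM + 0.1), 2714 with no fold threshold and 728 to 1482 with 1 library left out. The 1019 genes called lower became 2547 with no fold threshold and 713 to 1614 with 1 library left out. Called higher were 4 of the matricellular relatives in place of 7 with limma and with the replicate block (3 to 8 with 1 library left out), 2 receptors in place of 4 with limma and with the block (1 to 4), 1 versican and hyaluronan gene in place of 2 with limma and with the block (1 to 2), 1 matrix processing gene in place of 2 with limma (2 to 3), and 1 focal adhesion gene in place of 2 with limma and with the block (1 to 3). Chosen after seeing the data, library totals, TMM without the 10 highest genes and limma on log2(FPKM + 0.1) were also applied to the lists: the matricellular relatives called higher were 4 with totals and with this limma, the receptors 2 with this limma, and the focal adhesion genes 1 with totals and with this limma. Called lower with 1 library left out were 0 to 1 matricellular relatives, 2 to 3 receptors, 1 to 6 versican and hyaluronan genes, 0 to 1 matrix processing genes and 0 to 1 focal adhesion genes. With 1 library left out the log2 fold change was 2.88 to 4.22 for FN1, 1.89 to 2.09 for THBS1, 1.43 to 2.02 for THBS2, 0.47 to 0.81 for THBS3, 0.76 to 1.43 for TNC, 0.23 to 0.30 for SPARC, 0.13 to 1.88 for POSTN and 0.75 to 1.46 for VCAN. For SPARC it was 0.11 with library totals and with limma on either scale. With limma on log2(FPKM + 1) it was 3.4 for FN1, 1.82 for THBS1, 1.38 for THBS2, 0.39 for THBS3, 0.67 for TNC, 0.8 for POSTN and 0.63 for VCAN. With the replicate block it was 0.93 for POSTN, 0.85 for TNC and 0.82 for VCAN. The share of the 8 genes differed by 7.36 percentage points, by 2.79 as summed FPKM, by 4.15 without FN1 and by 6.55 to 7.86 with 1 library left out. Each fit with 1 library left out had fewer samples, and without FT_1 the spread within FT cells was smaller. Why values moved under any of the alternatives was not tested. Fetuses with the same number are not stated to be paired: Pearson's r of their deviations from the group mean was -0.00103, -0.0198 and 0.0184, and the replicate block gave 846 genes higher and 804 lower. With the block 2 of the 8 genes were called higher and with DESeq2 4, beside 3, and since the genes were chosen with the contrast known nothing is read from this. With 3 fetuses per group and 1 of them apart, the spread between FT fetuses limits which differences could be called. THBS4 and COMP had too few counts for a test, and the part of depth in the values of other genes was not tested. Culture, harvest and genotype of a group cannot be told apart, and FT_1 is a single fetus.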

Other observations

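Further lists of marker genes give the following sums of FPKM in FT_1, FT_2 and FT_3, and in WT_1, WT_2 and WT_3. For 7 of 8 endothelial markers in the table the sums were 1.08, 0.51 and 0.61, and 1.52, 1.0 and 1.23 (most abundant, PECAM1). For 6 of 8 blood markers they were 1.69, 7.27 and 7.82, and 19.8, 19.3 and 18.3 (LAPTM5). For 5 of 8 skeletal muscle markers they were 5.8, 4.64 and 3.78, and 1.56, 1.59 and 2.31 (DES). DES made up most of the sums in FT cells, while MYF5, MYH3 and TNNT2 were below all WT libraries in each FT library. For 6 of 8 cartilage and bone markers they were 164, 152 and 146, and 34.2, 32.4 and 39.4 (COL11A1). COL11A1 made up most of these sums, while COL2A1 had 24, 0 and 0 counts in FT_1, FT_2 and FT_3, and SOX9 had 2.19 FPKM in FT_1 but 0.17 and 0.24 in FT_2 and FT_3, among the 0.15 to 0.37 of WT cells. RUNX2 was above all WT libraries, with 14.63, 8.66 and 8.77 FPKM in FT cells and 5.0 to 5.61 in WT cells (log2FC 1.19, 0.91 without FT_1). SP7 had 0.06, 0.4 and 0.61 FPKM in FT cells and 0.09 to 0.24 in WT cells. For 5 of 8 neural markers they were 24.1, 7.3 and 6.1, and 12.1, 13.3 and 13.6 (S100B). The part of these genes in the results was not tested.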
